A study of Homo sapiens with 3 samples.

Results

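The HSD17B group comprised 9 genes, HSD17B1, HSD17B2, HSD17B4, HSD17B6, HSD17B8, HSD17B10, HSD17B11, HSD17B12 and HSD17B14, out of 19775 genes measured on the arrays. Members were taken as every probe set that the platform annotation assigns to one of these symbols alone, which gave 18 probe sets. The group was chosen by the signals of HSD17B2 across the 3 lines, present in RECK alone, so the values of HSD17B2 are given as a description. In all, 3 lines of HT1080, a human fibrosarcoma cell line, were profiled on 1 Affymetrix array each. The RECK line was transfected with pZeoSV2(+)-RECK, and the RECK/4NQ line with pZeoSV2(+)-RECK/4NQ, whose product carries glutamine in place of the 4 N-glycosylated asparagines 86, 200, 297 and 352. The Zeo line was mock-transfected. Cells of every line grew in 10% FCS and 50 µg/mL Zeocin, the drug used to select transfectants. RECK is a membrane-anchored inhibitor of matrix metalloproteinases. Whether a line is 1 clone or a pool is not stated in the labels, and no line has a second array, so differences between lines from the transgene and from clonal origin cannot be told apart.

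The hydroxysteroid 17β-dehydrogenases were named for the reaction at carbon 17 of sex steroids that switches a ketone and a hydroxyl group. Reductive members, such as HSD17B1, make the potent hormones oestradiol or testosterone, and oxidative members, such as HSD17B2, turn them into the weak oestrone and androstenedione. Several members with the family name act mainly on lipids: HSD17B4 in peroxisomal beta-oxidation, HSD17B8 in mitochondrial fatty acid synthesis, HSD17B10 in mitochondrial isoleucine breakdown and tRNA processing, and HSD17B12 in the elongation of very long-chain fatty acids.

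Values are MAS5 signals, which are linear intensities. A signal under 12.2, the 40th percentile of all values, was treated as below the floor. A gene was called higher or lower where the signals were at least 2-fold apart and neither was below the floor, or where one was below it and the other at least 24.5, in which case the fold is a lower bound. In counts, genes under 2-fold are all those not called, including genes below the floor in both lines and genes whose signals were too low for a call. A gene is represented by its brightest probe set. With 1 array per line there is no replicate error and no test. In its place each ratio is set beside the robust spread of ratios among the 1000 genes nearest in level, which holds true differences as well as noise. Signals of different probe sets are not compared with each other.

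The arrays differed slightly in overall level. Median signals were 17.9 on the RECK array, 17.3 on the RECK/4NQ array and 20.3 on the Zeo array, and over 14289 genes whose mean level reached the floor the median log2 ratio was -0.20 for RECK against Zeo, -0.12 for RECK/4NQ against Zeo and -0.06 for RECK against RECK/4NQ. Ratios of 3′ to 5′ probe sets, a measure of RNA integrity, lay between 0.923 and 0.979 for GAPDH and between 1.28 and 1.36 for ACTB. The transfected gene RECK read 387 in RECK, 442 in RECK/4NQ and 264 in Zeo by its brightest probe set. Both transfected lines were thus under 2-fold against Zeo. This probe set has a name ending in _x_at, given where several transcripts may match. The gene's other probe sets were at or below 26.2 and differed in order. In RECK, RECK/4NQ and Zeo, the signal was higher in RECK than in Zeo at 17.9, 25.1 and 5.64, and at 18.2, 12.4 and 11.2. It was lower at 2.08, 11.3 and 26.2, and nearly level at 21.0, 19.8 and 21.7. The part of the transgene in these signals was not tested. Of 7 mesenchymal markers with a probe set, the 6 genes VIM, FN1, CD44, ENG, PLAUR and S100A4 were at least 2 times the floor in every line, and none of 6 epithelial markers was. The other mesenchymal marker, NT5E, was below the floor in RECK and RECK/4NQ. Of 4 endothelial markers PECAM1, and of 3 blood markers CD3E, were at least 2 times the floor in every line. For tissues known to use HSD17B2, summed marker signals were 114, 64.3 and 93.0 for 4 intestinal markers in RECK, RECK/4NQ and Zeo, 188, 226 and 675 for 4 endometrial markers, 422, 372 and 576 for 4 placental markers and 109, 99.7 and 114 for 4 hepatocyte markers. Of the placental genes, CGA and GCM1 were below the floor in every line, HLA-G was at least 2 times the floor in every line, and PSG1 was so in RECK and Zeo. Of the endometrial genes, PAEP, ESR1 and FOXO1 were at least 2 times the floor in every line, and PGR was below the floor in RECK. ESR1 read 53.8 in RECK, 32.2 in RECK/4NQ and 42.9 in Zeo, and PGR 7.18, 15.1 and 23.2. Most of the endometrial sum of 675 in Zeo thus came from PAEP and FOXO1. Among the intestinal markers VIL1, FABP2 and MUC2 were at least 2 times the floor in RECK, none was in RECK/4NQ, and VIL1 and MUC2 were in Zeo. Of the hepatocyte genes, TTR and AFP were at least 2 times the floor in every line. APOA1 was so in Zeo only, and was below the floor in RECK. The part of such markers in the HSD17B2 signal was not tested.

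A set of 3 members, HSD17B4, HSD17B8 and HSD17B10, shared the same order of lines, with the signal highest in RECK/4NQ, then RECK, then Zeo, as did 9.65% of the 12411 genes at or above the floor in all lines. None of the 3 passed 2-fold in any comparison, and RECK and Zeo differed by 1.11-fold for HSD17B4 and 1.02-fold for HSD17B10, within the spread. Their promoters, from 250 bases before to 50 bases after the gene start, are shown because these members shared that order. The sequences are those of RefSeq on GRCh38.p14, whose table matched 4 of the 9 members. HSD17B4 lies at chr5:119452247-119452546 on the plus strand, HSD17B8 at chr6:33204405-33204704 on the plus strand, and HSD17B10, by the earlier listed of its starts, at chrX:53434327-53434626 on the minus strand. Each is written along its gene's strand, and capitals mark the GC box GGGCGG and the CCAAT box CCAAT, read on both strands.
HSD17B4: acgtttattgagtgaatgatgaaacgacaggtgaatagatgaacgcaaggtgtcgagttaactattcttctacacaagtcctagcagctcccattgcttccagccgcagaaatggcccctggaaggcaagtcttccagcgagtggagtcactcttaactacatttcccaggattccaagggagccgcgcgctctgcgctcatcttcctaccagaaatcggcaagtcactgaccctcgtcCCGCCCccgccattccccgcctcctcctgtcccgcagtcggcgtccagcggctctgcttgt
HSD17B8: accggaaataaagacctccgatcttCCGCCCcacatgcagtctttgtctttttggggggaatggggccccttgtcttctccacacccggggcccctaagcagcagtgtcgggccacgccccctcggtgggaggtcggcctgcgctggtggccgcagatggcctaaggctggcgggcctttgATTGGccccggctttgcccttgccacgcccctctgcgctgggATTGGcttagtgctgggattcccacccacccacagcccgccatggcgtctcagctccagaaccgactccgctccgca
HSD17B10: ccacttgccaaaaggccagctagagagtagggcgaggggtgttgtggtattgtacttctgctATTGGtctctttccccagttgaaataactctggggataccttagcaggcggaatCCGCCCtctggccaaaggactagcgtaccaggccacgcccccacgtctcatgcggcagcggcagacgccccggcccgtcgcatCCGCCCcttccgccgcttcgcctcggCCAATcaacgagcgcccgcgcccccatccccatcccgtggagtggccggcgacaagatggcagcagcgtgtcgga
The GC box occurred 1 time in HSD17B4, 1 time in HSD17B8 and 2 times in HSD17B10, each time on the opposite strand as CCGCCC. Among 27305 promoters of this length 44.6% held it. The CCAAT box occurred 2 times in HSD17B8, 2 times in HSD17B10 and 0 times in HSD17B4, and 35.7% of promoters held it. Neither TATAAA, present in 12.0% of promoters, nor the nuclear receptor half-site AGGTCA, present in 13.9%, was found in these 3 windows. The number of CG dinucleotides was 19, 19 and 26, against a median of 14 over all promoters. The fourth matched promoter, of HSD17B11, held 1 CCAAT box, no GC box and 18 CG dinucleotides. These matches describe the letters of the windows only.

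HSD17B2, the microsomal enzyme that inactivates oestradiol and testosterone by oxidation, had signal in the RECK line alone. Its single probe set, 204818_at, read 259 in RECK, 10.6 in RECK/4NQ and 9.76 in Zeo. In a culture lysate, fewer cells that carry a transcript and less of it per cell cannot be told apart. Only the RECK value was above the floor, so the gene was at least 21.2-fold higher in RECK than in RECK/4NQ and at least 21.2-fold higher than in Zeo. Of all genes, 162 (0.819%) were at least 2 times the floor in RECK and below it in the other lines. HSD17B2 had the largest ratio to the floor among these, whose median RECK signal was 30.2. Because the group was picked for this pattern, its rank supports nothing further.

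HSD17B6, an oxidative enzyme related to retinol dehydrogenases that acts on androstanediol, was the other member with this pattern, at a far smaller size. Its probe set 37512_at read 29.5 in RECK, 7.80 in RECK/4NQ and 7.65 in Zeo. The RECK value lay little above the 24.5 needed for a call, which made HSD17B6 at least 2.41-fold higher in RECK than in either other line. A second probe set, 205700_at, was below the floor in all lines at 6.16, 1.55 and 1.08. The HSD17B6 call was lost with the floor at the 60th percentile, with log2(signal + 16), with the probe sets averaged and at a threshold of 3-fold.

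**Figure D1:**
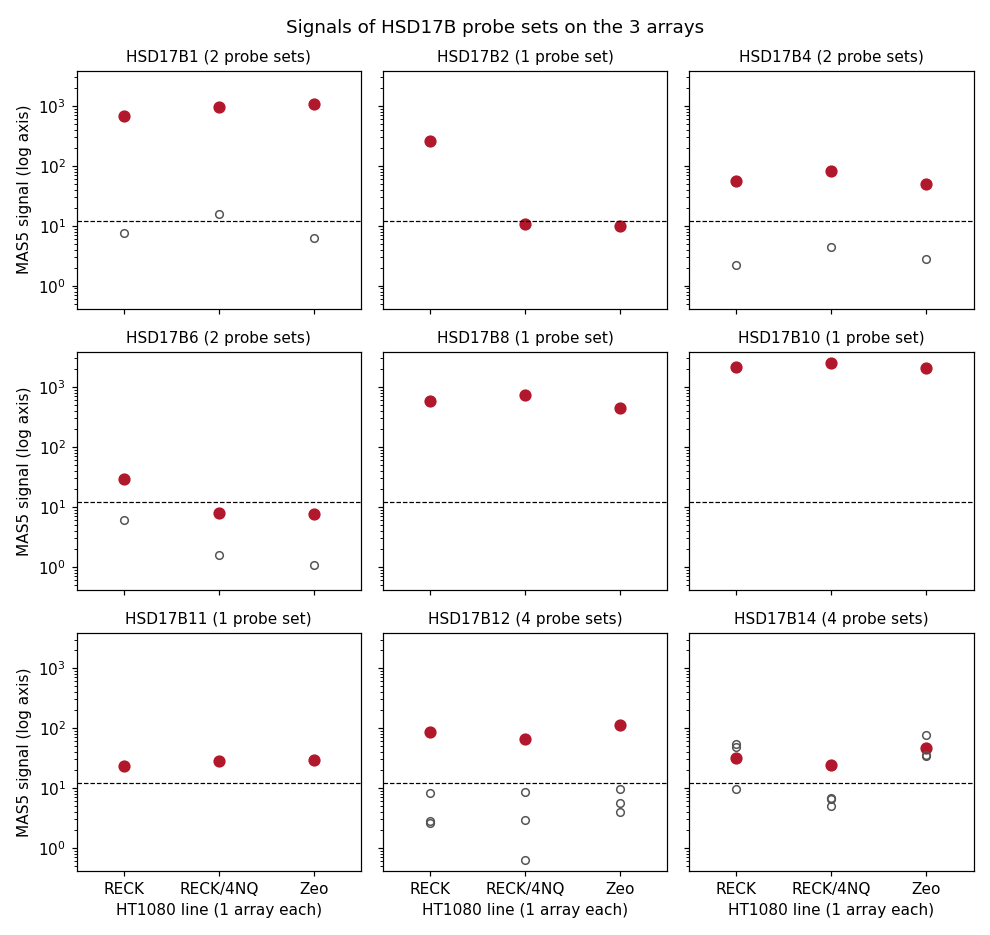
MAS5 signal on a log axis (no unit) for each of the 18 probe sets of the 9 HSD17B genes, by line, with 1 array a line. Filled red points are the probe set that represents the gene, open grey points the others, and the dashed line is the floor of 12.2. HSD17B2 is above the floor in RECK only, at 259, and HSD17B6 in RECK only, at 29.5.

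Counted together, 2 of the 9 members were higher in RECK relative to Zeo, 0 were lower and 7 stayed under 2-fold, where 10.7% of all genes were called in this comparison (4.03% higher and 6.71% lower). The comparison of RECK with RECK/4NQ gave the same count, 2 higher, 0 lower and 7 under 2-fold, beside 10.3% of all genes (5.77% higher and 4.48% lower). The 2 called members were HSD17B2 and HSD17B6 in both cases, and both comparisons use the RECK array. For RECK/4NQ against Zeo no member was called, beside 9.96% of all genes (2.82% higher and 7.14% lower). In that comparison 7 members were measured in both lines and stayed under 2-fold, while HSD17B2 and HSD17B6 were below the floor in both. The rule that chose the members used these contrasts, so nothing is read from the counts. Over members with a signal that reached the floor on either array, the median log2 ratio was 0.03 for RECK against Zeo (9 members), -0.05 for RECK/4NQ against Zeo (7 members) and -0.25 for RECK against RECK/4NQ (9 members).

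**Figure D2:**
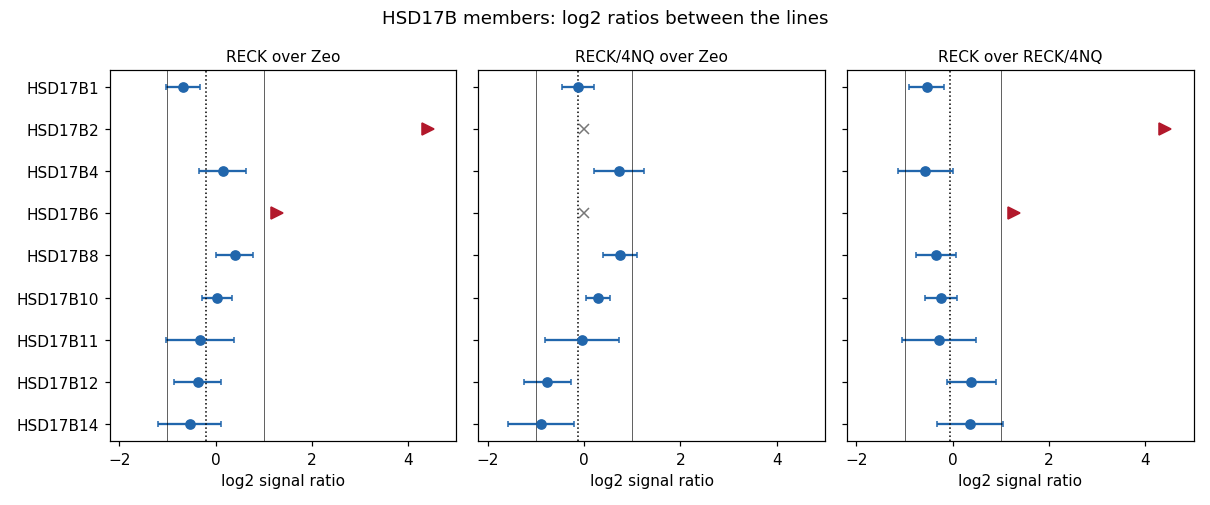
Log2 signal ratio of each HSD17B gene in the 3 comparisons. Blue points have both signals at or above the floor, with bars of 1 robust spread of the 1000 genes nearest in level. Red triangles are lower bounds, with 1 signal below the floor. Grey crosses mark both signals below it, the dotted line is the median of all genes and the thin lines mark 2-fold. HSD17B2, at 4.41, and HSD17B6, at 1.27, are the members past 2-fold.

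Among the other steroid-active members, HSD17B1, which reduces oestrone to oestradiol, was lower in RECK without passing 2-fold. Its brightest probe set, 228595_at, read 671 in RECK, 977 in RECK/4NQ and 1074 in Zeo, so RECK was 1.60-fold below Zeo and 1.46-fold below RECK/4NQ. Relative to the median of all genes the log2 ratio of RECK against Zeo was -0.48, which is 1.35 spreads (spread 0.36). RECK/4NQ against Zeo had a log2 ratio of -0.14, which became 0.09 after median centring of the arrays. RECK stayed the lowest line under all 3 other scalings. The other HSD17B1 probe set, 205829_at, did not follow this: it read 7.65 in RECK, 15.8 in RECK/4NQ and 6.38 in Zeo, and only the RECK/4NQ value was above the floor. Which of the probe sets reports the HSD17B1 transcript was not tested.

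HSD17B14, a cytosolic enzyme that oxidises oestradiol in vitro, was lower in RECK/4NQ relative to Zeo by all 4 of its probe sets, by differing amounts. The one that represents the gene, 219113_x_at, read 31.3 in RECK, 24.5 in RECK/4NQ and 45.6 in Zeo, which put RECK/4NQ 1.86-fold below Zeo, just short of a call. Probe set 228713_s_at read 47.9 in RECK, 6.88 in RECK/4NQ and 77.5 in Zeo, so by it RECK/4NQ was at least 6.34-fold below Zeo.

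Probe set 224497_x_at read 53.9 in RECK, 5.05 in RECK/4NQ and 33.8 in Zeo, at least 2.76-fold lower in RECK/4NQ than in Zeo, while in RECK it was 1.59-fold above Zeo. Probe set 224494_x_at read 9.61 in RECK, 6.45 in RECK/4NQ and 35.6 in Zeo, at least 2.91-fold lower in both transfected lines. Thus 3 of the 4 passed 2-fold for RECK/4NQ against Zeo, where 6.49% of all 41091 single-symbol probe sets were called lower. Averaging the 4 gave a log2 ratio of -1.64, past 2-fold, against -0.90 by 219113_x_at alone. All 4 have names ending in _x_at or _s_at, given to probe sets that may match more than one transcript, and they target 1 gene, so they are not separate observations.

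HSD17B11, an oxidative enzyme found on lipid droplets, was close to the floor. Its probe set 217989_at read 23.7 in RECK, 28.6 in RECK/4NQ and 29.7 in Zeo. The log2 ratios of -0.33 for RECK against Zeo and -0.05 for RECK/4NQ against Zeo were within their spreads of 0.70 and 0.77. The order of the 3 lines changed under all 3 other scalings of the arrays.

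Of the lipid enzymes, HSD17B4, HSD17B8 and HSD17B10 had the order given above. HSD17B4, the multifunctional enzyme of peroxisomal beta-oxidation, read 55.4 in RECK, 82.4 in RECK/4NQ and 50.1 in Zeo by probe set 201413_at. RECK/4NQ was 1.65-fold above Zeo, a log2 ratio of 0.84 relative to all genes or 1.61 spreads. Its RECK and Zeo signals differed by a log2 ratio of 0.15, or 0.34 relative to all genes, which is 0.69 spreads (spread 0.49). The other HSD17B4 probe set, 1563696_at, was below the floor in every line.

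HSD17B8, which forms the mitochondrial ketoacyl-ACP reductase together with CBR4, read 579 in RECK, 738 in RECK/4NQ and 441 in Zeo by probe set 213540_at. Zeo was the lowest line, 1.67-fold below RECK/4NQ and 1.31-fold below RECK. Relative to all genes the log2 ratios were 0.86 for RECK/4NQ against Zeo, at 2.49 spreads, and 0.59 for RECK against Zeo, at 1.52 spreads. The distance of 2.49 spreads was the largest among members measured in both lines of a comparison. HSD17B10, a mitochondrial dehydrogenase that is also a subunit of RNase P, read 2154 in RECK, 2553 in RECK/4NQ and 2106 in Zeo by probe set 202282_at. The RECK and Zeo signals differed by 1.02-fold, a log2 ratio of 0.23 relative to all genes or 0.74 spreads (spread 0.31). RECK/4NQ was 1.21-fold above Zeo, at 1.60 spreads. The order of lines for these 3 genes was the same under median centring, quantile normalisation and a common trimmed mean, and no ratio passed 2-fold.

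HSD17B12, the ketoacyl-CoA reductase of the fatty acid elongation cycle in the endoplasmic reticulum, ran the other way. Its probe set 217869_at read 85.5 in RECK, 65.3 in RECK/4NQ and 111 in Zeo. Zeo was highest, 1.30-fold above RECK and 1.70-fold above RECK/4NQ, with RECK/4NQ against Zeo at -0.64 in log2 ratio relative to all genes, or 1.31 spreads. The other 3 probe sets of HSD17B12 were below the floor in every line, with the highest signal at 9.61.

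Of the 10 genes with a probe set nearest to HSD17B2 on chromosome 16, 5 on each side, 4 were higher in RECK relative to Zeo, 0 were lower and 6 stayed under 2-fold, where 4.03% of all genes were called higher. The median log2 ratio was 1.02 over the 8 whose mean level reached the floor. For RECK against RECK/4NQ 2 of the 10 were higher, PLCG2 and SDR42E1, 0 were lower and 8 stayed under 2-fold, with a median of 0.64, where 5.77% of all genes were called higher. The phospholipase PLCG2 read 109 in RECK, 26.9 in RECK/4NQ and 31.9 in Zeo. SDR42E1, a short-chain dehydrogenase/reductase next to HSD17B2, read 97.6 in RECK, 38.5 in RECK/4NQ and 33.9 in Zeo, while its other probe set read 11.2 in RECK, 17.8 in RECK/4NQ and 15.8 in Zeo. OSGIN1, an oxidative stress response gene, read 77.3 in RECK, 44.2 in RECK/4NQ and 35.8 in Zeo, and an uncharacterised locus read 34.9 in RECK, 21.8 in RECK/4NQ and 6.10 in Zeo. For RECK/4NQ against Zeo 1 of the 10 was higher, MLYCD, malonyl-CoA decarboxylase, at 119 in RECK/4NQ and 50.2 in Zeo. Not called for RECK against Zeo were MLYCD, CMIP, HSBP1 and PKD1L2, with log2 ratios of 0.92, 0.63, 0.22 and 0.01. BCO1 was below the floor in RECK at 9.88, beside 15.2 in Zeo, and the remaining neighbour was below it in every line.

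For the other 8 members the median over neighbours in RECK against Zeo lay between -0.52 and 0.02, and between 0 and 2 neighbours were higher. For RECK against RECK/4NQ that median lay between -0.32 and 0.14, and between 0 and 1 neighbours were higher. The log2 ratio of HSD17B2 itself for RECK against Zeo was at least 4.41, beside 1.78 for PLCG2, the highest among its neighbours measured in both lines. The uncharacterised locus, below the floor in Zeo, had at least 1.51, a bound that cannot be ranked against these. The part of a shared regional shift in the HSD17B2 signal was not tested.

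**Figure D3:**
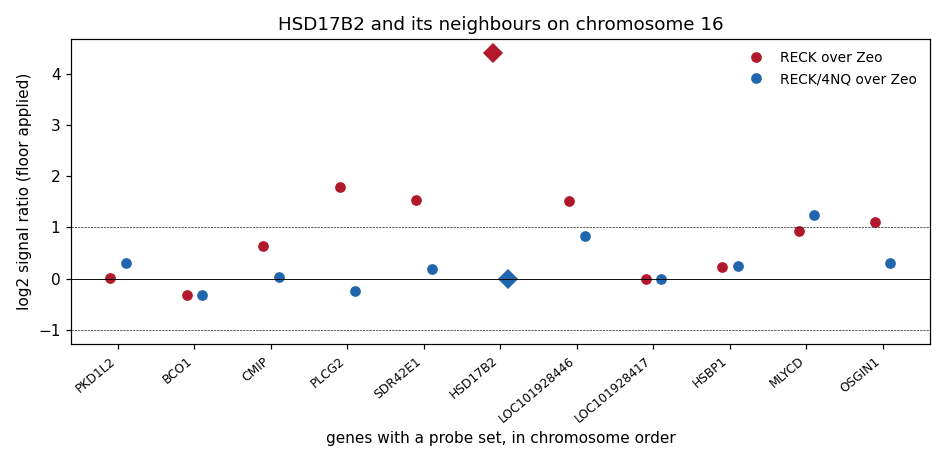
Log2 signal ratio, with signals below the floor set to it, for HSD17B2 (diamonds) and the 5 nearest genes with a probe set on each side (circles), in chromosome order; distances are not to scale. Red is RECK over Zeo and blue is RECK/4NQ over Zeo, and dashed lines mark 2-fold. HSD17B2 stands at 4.41 in RECK over Zeo, above PLCG2 at 1.78, and at 0 in RECK/4NQ over Zeo.

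Across all genes, the 5 with signals nearest those of HSD17B2 over the 3 arrays, by Euclidean distance of log2 signals with the floor applied, were SOX7, CDR2L, MN1, SHANK3 and SPRR2B. SOX7, a transcription factor of blood vessel development, read 151 in RECK, 9.56 in RECK/4NQ and 14.1 in Zeo, at a distance of 0.81. CDR2L read 130, 11.6 and 8.83 in the same lines at 0.99, and MN1, a transcriptional coregulator, 138, 13.5 and 17.2 at 1.05. SHANK3, a synaptic scaffold protein, read 121, 3.83 and 8.26 at 1.09, and SPRR2B, a cornified envelope precursor, 123, 16.4 and 7.27 at 1.15. Each had its high value in RECK by the probe set given. SOX7 and SHANK3 have a second probe set, and neither of these was at least 2 times the floor in RECK with the other lines below it. None of them lies on chromosome 16. With 3 arrays such likeness is a description only.

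In all, 8 lists of genes around these enzymes were then examined. Their counts are to be read beside the shares of all genes called. These were 4.03% higher and 6.71% lower for RECK against Zeo, and 2.82% and 7.14% for RECK/4NQ against Zeo. For RECK against RECK/4NQ they were 5.77% and 4.48%. Among other steroid dehydrogenases and reductases, 3 of 18 genes were higher in RECK relative to Zeo, 0 were lower and 15 stayed under 2-fold. These were AKR1C3, AKR1C2 and SDR42E1, the last at 2.88-fold. SDR42E1 is the neighbour of HSD17B2 given above and is counted again here, also among those higher for RECK against RECK/4NQ. The clearest was AKR1C3, an aldo-keto reductase also known as type 5 17β-dehydrogenase, which makes testosterone from androstenedione. It read 93.2 in RECK, 50.6 in RECK/4NQ and 18.5 in Zeo, which is 5.02-fold and 2.73-fold above Zeo. Its paralogue AKR1C2, which inactivates dihydrotestosterone, read 66.2 in RECK, 50.9 in RECK/4NQ and 29.0 in Zeo, but another of its probe sets read 15.8 in RECK, 44.6 in RECK/4NQ and 40.8 in Zeo. Near-identical AKR1C transcripts may share probes, so these values are uncertain for single genes.

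SRD5A1, the 5α-reductase that makes dihydrotestosterone, read 179 in RECK, 67.1 in RECK/4NQ and 102 in Zeo, 2.68-fold higher in RECK than in RECK/4NQ. Its other probe sets passed the same call, at 148 in RECK and 72.2 in RECK/4NQ, and at 71.0 in RECK with RECK/4NQ below the floor. HSD11B1, which regenerates cortisol, read 69.5 in RECK, 55.2 in RECK/4NQ and 120 in Zeo, 2.16-fold lower in RECK/4NQ than in Zeo. HSDL2, a peroxisomal family relative, was below the floor in RECK/4NQ only by its brightest probe set. It read 27.5 in RECK, 7.28 in RECK/4NQ and 26.9 in Zeo. None of its other probe sets passed a call. In RECK, RECK/4NQ and Zeo they read 18.3, 4.90 and 7.56, then 8.65, 7.31 and 12.5, and the last was below the floor in every line.

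This list also held HSD17B3 and HSD17B7, further 17β-dehydrogenases. HSD17B3, which makes testosterone in the testis, read 5.76 in RECK, 22.8 in RECK/4NQ and 18.9 in Zeo, and thus was below the floor in RECK while its other values were too low for a call. HSD17B7, which acts in cholesterol synthesis, read 320 in RECK, 376 in RECK/4NQ and 340 in Zeo. For RECK/4NQ against Zeo this list had 1 higher, 2 lower and 15 under 2-fold, and for RECK against RECK/4NQ 3 higher, 0 lower and 15 under 2-fold. Set against all genes, its median log2 ratio was 0.17 for RECK against Zeo, 0.21 for RECK/4NQ against Zeo and 0.32 for RECK against RECK/4NQ.

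Genes of steroid synthesis and conjugation had 2 of 17 higher in RECK relative to Zeo, 1 lower and 14 under 2-fold, with a relative median of 0.07. SULT1A1, a sulfotransferase of phenols and oestrogens, read 573 in RECK, 282 in RECK/4NQ and 230 in Zeo, and a second probe set read 498, 201 and 148 in these lines, both with names ending in _x_at. Its remaining, dim probe set moved the opposite way, at 10.5 in RECK, 28.1 in RECK/4NQ and 28.7 in Zeo. CYP17A1, which makes androgen precursors, read 35.6 in RECK and 32.6 in RECK/4NQ and was below the floor in Zeo at 9.05, while its other probe set was above the floor in Zeo only, at 13.2. CYP1B1, an oestrogen hydroxylase, was below it in RECK at 10.1, beside 15.9 in RECK/4NQ and 26.2 in Zeo.

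CYP11A1, the side-chain cleavage enzyme that starts steroid synthesis, read 60.7 in RECK, 18.6 in RECK/4NQ and 33.2 in Zeo, 3.27-fold higher in RECK than in RECK/4NQ. CYP19A1, the aromatase that supplies oestrogen, read 24.0 in RECK, 14.6 in RECK/4NQ and 29.7 in Zeo by its brightest probe set, and its other 6 were at or below 15.4. STS, the sulfatase that frees steroid sulfates, read 19.7 in RECK, 13.6 in RECK/4NQ and 20.8 in Zeo, and another of its probe sets read 32.7, 4.22 and 23.8 in these lines. The list had 1 higher, 1 lower and 15 under 2-fold for RECK/4NQ against Zeo (relative median 0.14), and 2 higher, 0 lower and 15 under 2-fold for RECK against RECK/4NQ (0.05).

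Receptors through which sex steroids act were dim. ESR1, an oestrogen receptor, read 53.8 in RECK, 32.2 in RECK/4NQ and 42.9 in Zeo by its brightest of 9 probe sets, while another was above the floor in Zeo only, at 5.89 in RECK, 10.1 in RECK/4NQ and 55.5 in Zeo. ESR2, the other nuclear oestrogen receptor, read 4.91 in RECK, 24.7 in RECK/4NQ and 15.6 in Zeo by its brightest, while another went the opposite way at 26.3 in RECK, 4.11 in RECK/4NQ and 14.5 in Zeo. PGR, the progesterone receptor, read 7.18 in RECK, 15.1 in RECK/4NQ and 23.2 in Zeo, while its other probe set had the reverse order, at 19.3 in RECK, 15.7 in RECK/4NQ and 6.67 in Zeo. GPER1, a membrane oestrogen receptor, was below the floor in RECK/4NQ at 7.76, beside 26.6 in RECK and 26.4 in Zeo. The other GPER1 probe set was below the floor in every line. Of 10 receptors and coactivators none was called for RECK against Zeo and 10 stayed under 2-fold (relative median -0.11), 1 was lower and 9 stayed under 2-fold for RECK/4NQ against Zeo (-0.12), and 1 was higher, 1 lower and 8 under 2-fold for RECK against RECK/4NQ (-0.19).

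Peroxisomal beta-oxidation, the pathway of HSD17B4, had a relative median of 0.42 for RECK/4NQ against Zeo, with 2 of 17 genes higher, 0 lower and 15 under 2-fold. ACOX2, the oxidase of branched-chain and bile acid intermediates, which HSD17B4 processes further, read 370 in RECK, 1437 in RECK/4NQ and 574 in Zeo. RECK/4NQ was thus 2.50-fold above Zeo, and RECK 3.88-fold below RECK/4NQ. AMACR, the racemase of the same substrates, read 31.3 in RECK, 28.9 in RECK/4NQ and 14.1 in Zeo. The auxiliary enzymes ECI2 and DECR2 read 180 and 66.7 in RECK, 418 and 165 in RECK/4NQ, and 249 and 133 in Zeo.

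CRAT, carnitine acetyltransferase, had the opposite order for RECK against RECK/4NQ, at 276 in RECK and 104 in RECK/4NQ. In that comparison 1 gene was higher, 3 were lower and 13 under 2-fold (relative median -0.32). For RECK against Zeo 1 was higher, 0 lower and 16 under 2-fold (0.10).

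Fatty acid elongation and mitochondrial fatty acid synthesis, where HSD17B12 and HSD17B8 act, had 1 of 16 genes higher, 1 lower and 14 under 2-fold for RECK against Zeo (relative median 0.25). ACSL1, a long-chain acyl-CoA synthetase, read 108 in RECK, 56.9 in RECK/4NQ and 49.0 in Zeo. HACD4, a dehydratase of the elongation cycle, read 2.79 in RECK, 14.5 in RECK/4NQ and 27.2 in Zeo. CBR4, the partner of HSD17B8, read 52.9 in RECK, 86.4 in RECK/4NQ and 42.9 in Zeo by its brightest probe set, the same order as HSD17B8, whereas both its other probe sets were below the floor in RECK/4NQ and above it in Zeo. The list had 1 higher, 0 lower and 15 under 2-fold for RECK/4NQ against Zeo (0.31), and none called, with 16 under 2-fold, for RECK against RECK/4NQ (-0.14).

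The partners of HSD17B10 in mitochondrial RNase P did not share its order. TRMT10C, the methyltransferase subunit, read 57.7 in RECK, 59.9 in RECK/4NQ and 103 in Zeo, and PRORP, the nuclease subunit, 4.28 in RECK, 30.2 in RECK/4NQ and 13.8 in Zeo. On the list of RNase P and short-chain acyl-CoA oxidation, ACAA2, a mitochondrial thiolase, read 122 in RECK, 213 in RECK/4NQ and 81.1 in Zeo, and ACADS, short-chain acyl-CoA dehydrogenase, 53.1 in RECK, 122 in RECK/4NQ and 108 in Zeo. Of 19 genes, 0 were higher, 1 was lower and 18 under 2-fold for RECK against Zeo (relative median 0.16), 2 were higher, 0 lower and 17 under 2-fold for RECK/4NQ against Zeo (0.01), and 0 were higher, 2 lower and 17 under 2-fold for RECK against RECK/4NQ (0.08).

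Lipid droplet proteins, the company of HSD17B11, had 4 of 18 genes lower in RECK than in Zeo, 0 higher and 14 under 2-fold, with a relative median of -0.16. Of all genes, 6.71% were called lower in this comparison. The droplet coat genes PLIN5 and PLIN4 read 14.0 and 15.2 in RECK, 44.8 and 25.1 in RECK/4NQ, and 66.5 and 60.9 in Zeo. The hydrolase LDAH read 28.1 in RECK, 45.9 in RECK/4NQ and 78.8 in Zeo, and FITM1, which helps droplets form, 11.8 in RECK, 20.6 in RECK/4NQ and 38.3 in Zeo. Another PLIN5 probe set went the opposite way for RECK against Zeo, at 48.2 in RECK, 8.96 in RECK/4NQ and 26.7 in Zeo.

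PLIN2, the widespread droplet coat protein, read 24.0 in RECK, 58.9 in RECK/4NQ and 13.1 in Zeo, 4.51-fold higher in RECK/4NQ than in Zeo, by a probe set of shared kind, with its other below the floor in every line. The list had 1 higher, 1 lower and 16 under 2-fold for RECK/4NQ against Zeo (-0.38) and 0 higher, 2 lower and 16 under 2-fold for RECK against RECK/4NQ (0.00).

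Retinol and retinoic acid metabolism, whose dehydrogenases HSD17B6 resembles, had 2 of 17 genes higher, 0 lower and 15 under 2-fold for RECK against Zeo, although the relative median was -0.31. ALDH1A3, which makes retinoic acid, read 117 in RECK, 71.3 in RECK/4NQ and 18.3 in Zeo, 6.41-fold and 3.90-fold above Zeo, while its other probe set was above the floor in Zeo only, at 4.38 in RECK, 5.71 in RECK/4NQ and 12.9 in Zeo. DHRS3, which reduces retinal, read 76.2 in RECK, 52.7 in RECK/4NQ and 23.1 in Zeo. RARB, a retinoic acid receptor, read 40.1 in RECK, 23.8 in RECK/4NQ and 56.8 in Zeo, and the retinol dehydrogenase RDH12 read 39.6, 17.3 and 49.6 in these lines. CYP26A1, which degrades retinoic acid, was above the floor in RECK/4NQ only, at 27.3, beside 9.51 in RECK and 3.56 in Zeo, and RDH5, a retinal pigment epithelium enzyme, read 24.0 in RECK, 49.1 in RECK/4NQ and 34.7 in Zeo. The list had 3 higher, 2 lower and 12 under 2-fold for RECK/4NQ against Zeo (-0.07) and 1 higher, 2 lower and 14 under 2-fold for RECK against RECK/4NQ (-0.03).

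Over the 8 lists the share of genes called ran from 0% to 22.2% for RECK against Zeo, from 6.25% to 29.4% for RECK/4NQ against Zeo and from 0% to 23.5% for RECK against RECK/4NQ, around the shares of all genes given above. With between 10 and 19 genes a list, 1 gene moves such a share by several points, and nothing particular to a list is read from it.

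**Figure D4:**
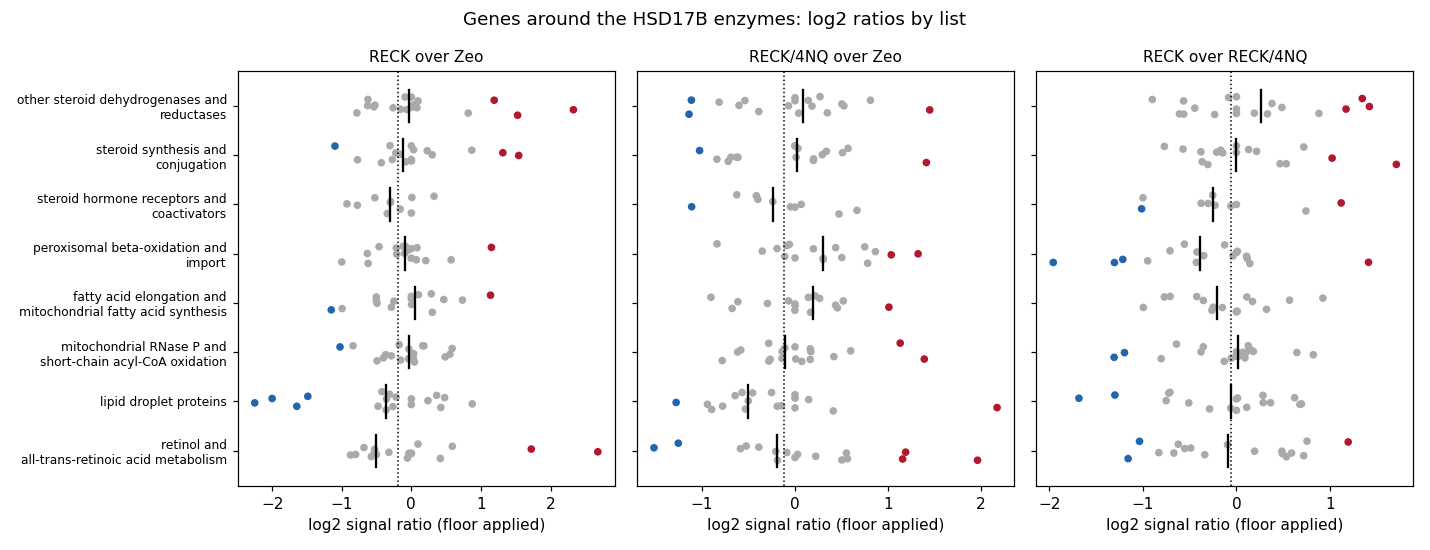
Log2 signal ratio, with signals below the floor set to it, of each gene on the 8 lists in the 3 comparisons. Red points are called higher, blue points called lower and grey points are not called. Black bars are list medians over genes whose mean level reached the floor, and the dotted line is the median of all genes. Most genes are grey, with 9 higher and 7 lower over the lists in RECK over Zeo, a gene on 2 lists counting for each.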

How the data were processed

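Total RNA of 3 HT1080 lines was labelled from 8.1 to 15 µg and hybridised to 1 Affymetrix array each, per the labels' protocols. The deposited values are MAS5 signal intensities on a linear scale, 1 per probe set and array, as the submitters' processing notes name MAS5, without a version; no scaling target is named in the sources used here. Each array held 54675 probe sets, of which 62 controls were left out, 41091 had 1 gene symbol in the platform annotation, 1801 had several and 11721 were not listed with a gene. Of those with 1 symbol, 41037 matched a current RefSeq gene on GRCh38.p14, used for names, chromosomes, gene order and promoter sequences.

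Signals were used without further scaling. A gene was its brightest probe set by mean log2 signal. Log2 ratios were taken with signals under the floor raised to it. The number of arrays, 1 per line, limits the precision, and no test was made. The calling code was checked on simulated data for recovery of large changes in genes well above the floor. That check did not count how often unchanged genes, or genes near the floor, are called.

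Every probe set of the 9 members is covered. From each list, genes past 2-fold in a comparison were named, up to 4 by size, with fixed partner genes added; HSD17B13 was not analysed here. Members and lists were chosen with earlier results of these data known. The 10 alternatives changed the floor, pseudocount, probe set choice, scaling or fold. Calculations used Python 3.11.15, numpy 2.4.6 and pandas 2.3.3.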

Additional observations from a re-analysis of the deposited data

Results flagged for a closer look

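The HSD17B14 probe set 224497_x_at moved in opposite directions in the transfected lines relative to Zeo, with a log2 ratio of 0.67 for RECK and -1.47 for RECK/4NQ, where the RECK/4NQ value is a bound set by the floor. Each value comes from 1 array, and the difference between them was not tested.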

How the results depend on the processing

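Of 30 recounts of called members, 21 stayed within 1.5 times the first count. For RECK over Zeo the count of 2 became 1 with the floor at the 60th percentile, with log2(signal + 16), with averaged probe sets and at 3-fold; each time HSD17B2 remained and HSD17B6 did not. For RECK over RECK/4NQ it became 1 with the floor at the 60th percentile, with log2(signal + 16) and at 3-fold, and stayed 2 with averaged probe sets, by HSD17B2 and HSD17B14. For RECK/4NQ over Zeo the count of 0 became 1 with averaged probe sets (HSD17B14) and 4 at 1.5-fold (HSD17B4, HSD17B8, HSD17B12 and HSD17B14). Of 213 recomputed member ratios 204 moved by less than their spread (by less than 1 for HSD17B6, which had none), and no called one changed sign. List counts stayed within 1.5 times in 128 of 240 cases and list medians within 0.1 in 205 of 240. The share of all genes called ranged from 2.85% to 27.8% for RECK over Zeo, from 2.07% to 25.7% for RECK/4NQ over Zeo and from 2.64% to 26.9% for RECK over RECK/4NQ. Higher genes made up 37.5% of those called for RECK over Zeo as deposited, 54.2% after median centring, 53.8% after quantile normalisation and 52.9% at a common trimmed mean, and 28.3%, 50.8%, 45.9% and 33.9% for RECK/4NQ over Zeo in that order. The cause was not tested. No paired analysis was possible because each line has 1 array. Signals near the floor limit what HSD17B6, HSD17B11 and HSD17B14 can show.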
